A study of Mus musculus with 12 samples.

Results

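miR-451 and miR-486 are miRNAs that red blood cells carry in abundance, and their levels were followed in each of 12 carotid arteries. The members were the assays of the hairpins miR-451, miR-144 and miR-486, found by name, and 2 of the 513 miRNA assays with values met this rule, mmu-miR-451 and mmu-miR-486 (mouse). No assay of the miR-144 hairpin was analysed here. All arteries came from 6 female apoE-/- mice, which lack apolipoprotein E and develop atherosclerosis, and all received a high-fat diet for 6 weeks, with 21% fat, 19.5% casein and 0.15% cholesterol. The labels give the age as 6 to 8 weeks. The ligated group was the left carotid artery after occlusion of its external and internal branches and the occipital artery, which leaves outflow through the superior thyroid artery (6 samples). The control group was the untreated right carotid artery (6 samples), taken from operated mice, so no artery of an unoperated mouse was compared. Total RNA of the artery was measured by quantitative PCR, and no source used here says whether vessels were flushed of blood. In such bulk RNA, fewer cells of a type and less RNA per cell cannot be told apart.

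miR-451 is transcribed together with miR-144 under the erythroid factor GATA1, and its short hairpin is cut by Argonaute 2 and not by Dicer. The miRNA accumulates as red cell precursors mature and stays in the enucleated cell. miR-486 lies in the gene of ankyrin 1, a red cell membrane skeleton protein, and is expressed in erythroid cells and also in skeletal and heart muscle. In plasma, the amount of miR-451 relative to miR-23a, a miRNA that red cells hold little of, is used to detect haemolysis.

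The sequences of miR-451 show what its assay measures, and they were taken from RefSeq (mouse build GRCm38.p6). The mature miRNA lies at chr11:78073186-78073207 on the plus strand, in the hairpin of the gene Mir451a, whose neighbour Mir144 ends 99 bases before it. Capitals mark the seed, bases 2 to 8, in the first line and the whole mature miRNA, bases 17 to 38 of the 72-base hairpin, in the second, where it runs from the stem through the loop.
miR-451a mature: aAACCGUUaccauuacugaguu
miR-451a hairpin: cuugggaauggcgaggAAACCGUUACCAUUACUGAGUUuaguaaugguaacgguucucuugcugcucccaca

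miR-451 was measured in all 12 arteries and did not separate the groups. A threshold cycle (Ct) is the PCR cycle at which the product crosses a set signal, so a lower Ct means more RNA. In control arteries 1 to 6 the raw Ct of miR-451 was 22.58, 21.45, 23.76, 22.69, 21.88 and 23.95. In ligated arteries 1 to 6 it was 21.66, 22.33, 23.48, 22.63, 20.69 and 21.99. The lowest Ct of all was that of ligated 5 and the highest that of control 6, and the groups overlapped over most of their range. Each Ct was then subtracted from the average Ct of the 283 miRNAs that every artery held (detected means a Ct below 35), which gives a log2 level that is 0 for the average of those miRNAs. On this scale miR-451 stood at 2.40, 3.00, 1.28, 3.74, 3.78 and 2.21 in control arteries 1 to 6. The ligated arteries 1 to 6 stood at 1.67, 1.87, 0.56, 2.57, 4.34 and 3.02. Ligated arteries held both the lowest level, in number 3, and the highest, in number 5, and every control artery lay between them. If each cycle doubles the product, the highest value was 13.7 times the lowest on this scale, 9.58 times on raw Ct and 64.5 times when set against U6 and snoRNA429, the control RNAs of the deposited scaling.

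**Figure D1:**
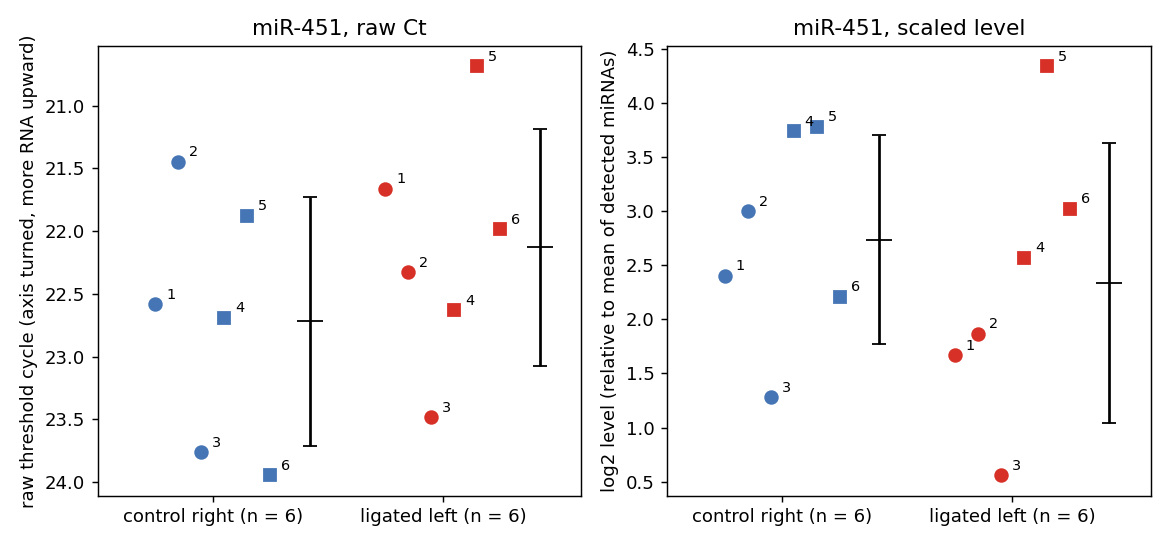
miR-451 in each artery as raw threshold cycle (left, axis turned so that more RNA is upward) and as log2 level against the average of 283 commonly detected miRNAs (right); figures beside points are sample numbers, circles are numbers 1 to 3, squares numbers 4 to 6, and bars give the mean ± SD of 6. The groups overlap on both scales, and control means and ligated means change places between them.

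The mean log2 level of miR-451 was 2.73 ± 0.97 (SD, n = 6) in control and 2.34 ± 1.29 (SD, n = 6) in ligated arteries. The difference, ligated minus control, was -0.40 ± 0.62 (SE). Its p from limma, adjusted by Benjamini-Hochberg over the 339 assays tested, was 0.776. In that test 42 of the 339 assays (12.4%) were called at an adjusted p below 0.05, and miR-451 was not among them. The 95% interval of the difference ran from -1.75 to 0.96, that is from 0.297-fold to 1.94-fold in ligated over control arteries. An exact permutation test of the level over all 924 splits gave p = 0.567 (two-sided, n = 6 a group). When numbers were taken as pairs (the replicate block), limma called 52 of 339 assays (15.3%). miR-451 then had an adjusted p of 0.441 and an interval of -1.18 to 0.39. With numbers 1 to 3 against 4 to 6 as the block, 67 of 339 (19.8%) were called and miR-451 had an adjusted p of 0.578 in limma. On raw Ct the sign turned, with a log2 difference of 0.59 ± 0.55 (SE; adjusted p 0.413), while the median of all assays was itself moved to 0.93, since the mean Ct was lower in ligated arteries for 261 of the 283 reference miRNAs and higher for 22. The mean Ct of the reference miRNAs was 25.45 in control and 24.47 in ligated arteries. The rank of miR-451 among the assays detected in an artery, which needs no scaling, was at 20.2% ± 6.04 (SD, n = 6) from the lowest Ct in control and 22.8% ± 9.16 (SD, n = 6) in ligated arteries (exact permutation p = 0.595, two-sided).

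**Figure D2:**
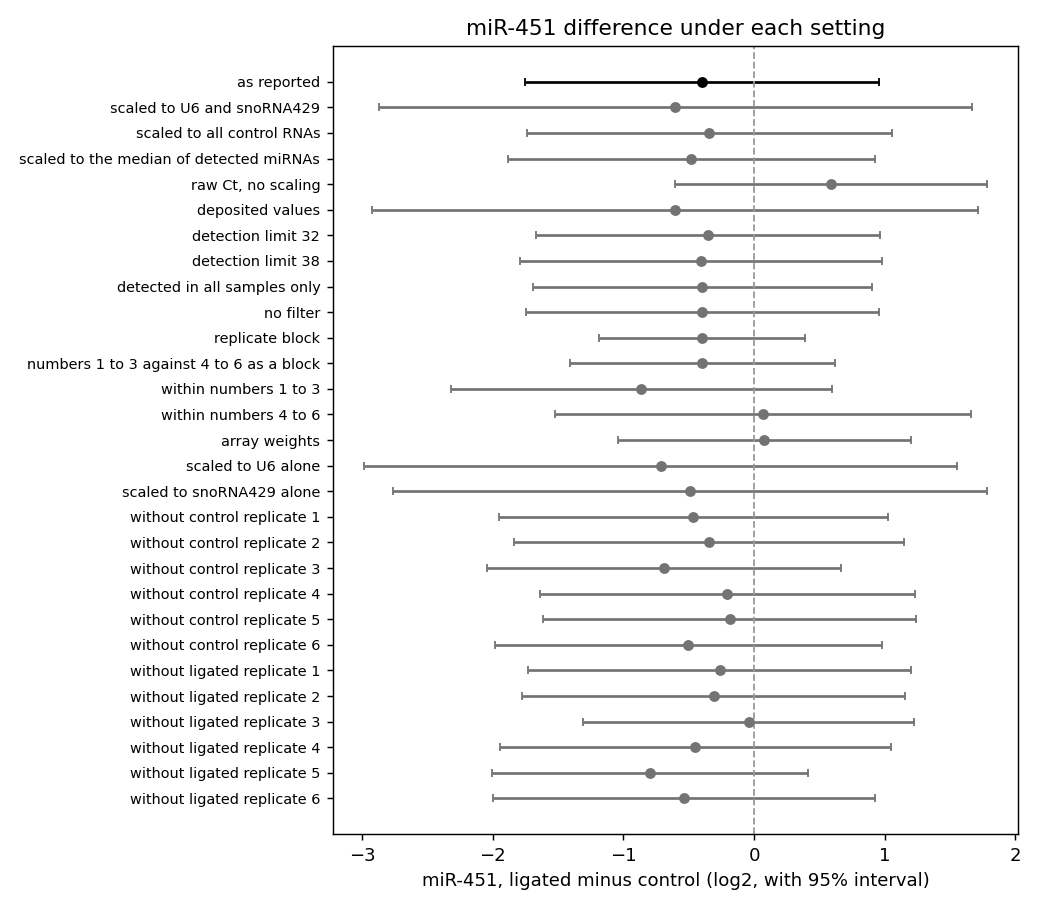
Difference of miR-451 between ligated and control arteries (horizontal axis, log2 with 95% interval from limma) as reported and under each other setting. Every interval includes 0, and raw Ct, numbers 4 to 6 alone and array weights lie above 0.

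Arteries of the same number are given together next, since taking them as pairs lowered the SE of the miR-451 difference from 0.62 to 0.33 in limma. Numbers 1 to 3 against 4 to 6 as the block, which the pairs also take up, already lowered it to 0.46. In raw Ct, control 3 and ligated 3 were among the samples with the least miR-451, and control 5 and ligated 5 among the 4 with the most. Number 6 was split, with the highest Ct of all in control 6, at 23.95, and 21.99 in ligated 6, and so was number 2, with 21.45 and 22.33. On the log2 level, the ligated artery had less miR-451 than the control artery of its number in 4 of 6 cases. By raw Ct it had more, that is a lower Ct, in 5 of 6. By number, the log2 difference was -0.73, -1.14, -0.72, -1.17, 0.56 and 0.81 for numbers 1 to 6. Numbers 1 to 3 and 4 to 6 stand as separate blocks of columns and differ over many miRNAs. Within numbers 1 to 3 the log2 difference of miR-451 was -0.86 (limma, adjusted p 0.560), and within numbers 4 to 6 it was 0.068 (adjusted p 0.935). The test of the difference between these values gave an adjusted p of 0.765 in limma. The mean level was 1.80 ± 0.85 (SD, n = 6) in numbers 1 to 3 and 3.28 ± 0.81 (SD, n = 6) in numbers 4 to 6, a gap of 1.48 that is wider than that between the groups. A gap at least as wide was seen in 62 of 283 assays (21.9%). The gap of miR-451 depended on the scale. Its raw Ct differed little, at 22.54 and 22.30, while against U6 and snoRNA429 the gap was wider, with means of -7.69 in numbers 1 to 3 and -4.60 in numbers 4 to 6. Within group and set, the SD of miR-451 was 0.85, against a median of 0.43 over the 283 assays, and 14.1% of assays varied at least as much.

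miR-486 was detected in 4 of 12 arteries, 2 of 6 control and 2 of 6 ligated, and was therefore not among the assays tested (Fisher's exact test of detection, p = 1.0). Its raw Ct was 29.09 in control 4, 28.38 in control 5, 29.12 in ligated 4 and 27.55 in ligated 5. In the other 8 arteries, all of numbers 1 to 3 and both of number 6, the well is listed at 40, the value given where nothing amplified. No other assay was detected in exactly these 4 arteries. The arteries with miR-486 had miR-451 levels of 2.57 to 4.34 and those without had 0.56 to 3.02, so the ranges overlapped, with control 2 and ligated 6 above ligated 4.

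**Figure D3:**
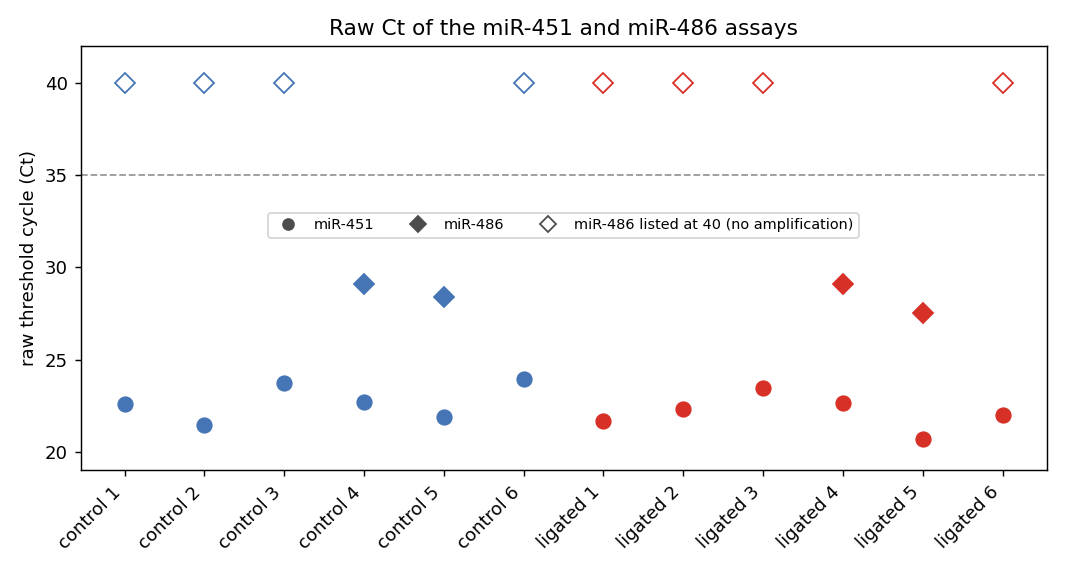
Raw threshold cycle of miR-451 (circles) and miR-486 (diamonds) in each artery, blue for control and red for ligated; open diamonds are wells listed at 40 and the dashed line marks the detection limit of 35. The gap between the 2 assays is nearly the same in the 4 arteries where both were detected.

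Where both miRNAs were detected, they kept a nearly fixed ratio. The Ct of miR-486 lay 6.40 cycles above that of miR-451 in control 4, 6.50 in control 5, 6.49 in ligated 4 and 6.87 in ligated 5. The gap varied over 0.465 cycles, while miR-451 itself varied over 2.00 cycles in the same arteries. Of 300 assays other than miR-451 detected in these 4 arteries, miR-486 kept the narrowest gap range to miR-451, and the next, miR-32, varied over 1.00 and the median assay over 1.97 cycles. This ratio needs no scaling. It was 6.45 ± 0.07 (SD, n = 2) in control and 6.68 ± 0.27 (SD, n = 2) in ligated arteries, a log2 difference of 0.23 that 2 arteries a group cannot test (exact permutation p = 0.667, smallest possible 0.333, two-sided). Added to the miR-451 Ct of the other 8 arteries, the measured gaps give a Ct of 27.8 to 30.8, below the detection limit of 35, yet those wells are listed at 40. Among the 349 assays with a Ct below 30 in at least 1 artery, 63 (18.1%) had a well at 40 in another, between 14 and 37 of them in each artery. Whether a well at 40 held no miR-486 or was a failed reaction was not tested.

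miR-23a, the usual partner of miR-451 in the haemolysis ratio, was detected in 4 arteries, at a Ct of 21.07 to 22.35, and listed at 40 in 8. miR-451 over miR-23a was -0.34, -0.81 and -1.92 on the log2 scale in control 4, 5 and 6 and -0.88 in ligated 6, so the only ligated value lay inside the control range. miR-23b, which differs from miR-23a in its 3′ part and was detected in all arteries, was used in its place after the values were seen. miR-451 over miR-23b was 0.81 ± 0.98 (SD, n = 6) in control and 0.84 ± 0.77 (SD, n = 6) in ligated arteries, a difference of 0.032 (exact permutation p = 0.948, two-sided). It was highest in control 2, at 2.42, and in ligated 5, at 2.21.

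Of the other miRNAs abundant in red cells, 7 had an assay, 6 were tested and none passed the threshold in limma, where the lowest unadjusted p was 0.0594, for miR-92a. Their median log2 difference was 0.047, against -0.053 over all assays tested, and they ranged from -0.36 for miR-92a to 0.48 for miR-185. Among numbers 4 to 6 alone, miR-92a was lower in ligated arteries, by -0.58 (limma, adjusted p 0.0373), and miR-185 higher, by 0.75 (limma, adjusted p 0.0210). Among numbers 1 to 3 they differed by -0.14 (limma, adjusted p 0.852) and 0.21 (limma, adjusted p 0.912). Over all assays, 101 of 339 (29.8%) were called among numbers 4 to 6 and 5 of 339 (1.47%) among numbers 1 to 3, so 2 of 6 is near the share of all assays. miR-363 was undetected in all 12 arteries. miR-16, which is abundant in red cells and in most other cells, differed by 0.12 ± 0.56 (SE; limma, adjusted p 0.912). miR-25, of the cluster that also holds miR-93 and miR-106b in the gene Mcm7, differed by -0.030 ± 0.25 (SE; limma, adjusted p 0.963). Cell type markers gave the setting. miR-143 and miR-145 of smooth muscle and both arms of miR-126 of endothelium were detected in all 12 arteries. Both smooth muscle miRNAs were lower in ligated arteries, miR-143 by -2.12 ± 0.40 (SE; limma, adjusted p 0.00669) and miR-145 by -2.39 ± 0.45 (SE; limma, adjusted p 0.00669), and neither arm of miR-126 passed. On raw Ct miR-143 and miR-145 differed by -1.13 and -1.40 and did not pass (limma, adjusted p 0.0884 and 0.0716). Of the striated muscle miRNAs, which bear on miR-486, miR-1, miR-133a, miR-133b and miR-206 were detected in all 12 arteries and miR-208, miR-208b and miR-499 in none. Of these 4, miR-1 was lower in ligated arteries, by -1.75 (limma, adjusted p 0.0238). It did not pass on raw Ct, where limma called no assay lower. In control 4, control 5, ligated 4 and ligated 5, the levels of miR-133a were 4.74, 4.92, 2.39 and 2.66, and those of miR-486 were -2.66, -2.72, -3.92 and -2.53. In these arteries miR-133a was lower in both ligated arteries and miR-486 in ligated 4 only. Among all ligated arteries, ligated 4 had the lowest level of miR-133b, at -0.27, and of miR-206, at -3.57. Other levels of miR-133b and miR-206 in these 4 arteries, and those of miR-1, are not given. A muscle source of miR-486 was not tested.

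On the scaled level, miR-25 had the highest correlation with miR-451. Among 282 assays detected in all arteries, Pearson's r with miR-451 over the 12 samples was 0.90 for miR-25, 0.83 for miR-154*, 0.83 for miR-106b, 0.81 for miR-296-5p and 0.79 for miR-148b, against a median of 0.08. With the mean of each group in each set of numbers removed, the highest were miR-25 (0.81), miR-15b (0.80), miR-93 (0.78), miR-106b (0.77) and miR-10b (0.74), against a median of -0.05. miR-25 led both rankings, and miR-93 and miR-106b of its cluster were among the 5 highest of the second. miR-93*, from the other arm of the miR-93 hairpin, had -0.82 over the 12 samples, the lowest of the 282, and -0.67 with the means removed. The order depended on scale and set. On raw Ct, miR-25 had 0.59 and 14 assays were higher, led by miR-154* at 0.78, against a median of 0.25. There miR-93* had 0.0098, so its negative r was seen only on the scaled level. Among numbers 1 to 3 the highest was miR-485* (0.94) and among numbers 4 to 6 miR-181c (0.92), with 4 assays above miR-25 in each. The values share samples and the scaling reference, and the highest of 282 values is large by selection, so no test is given for this ranking. miR-25 itself varied little, from -0.89 in ligated 3, the artery with the least miR-451, to 0.23 in control 4.

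The seeds show how the miRNAs that followed miR-451 relate to miR-92a and miR-16 of the red cell list. Sequences are from RefSeq (GRCm38.p6), with the seed, bases 2 to 8, in capitals. miR-25 (chr5:138165332-138165353, minus strand) shares its seed with miR-92a (chr14:115044476-115044496, plus strand), and miR-93 (chr5:138165574-138165596, minus strand) with miR-106b (chr5:138165787-138165807, minus strand). miR-15b (chr3:69009775-69009796, plus strand) shares it with miR-16 (chr14:61631936-61631957, minus strand). For miR-92a and miR-16 the positions are those of the genes Mir92-1 and Mir16-1 alone, and the assays are not said to be particular to a gene.
miR-25-3p: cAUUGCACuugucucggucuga
miR-92a-3p: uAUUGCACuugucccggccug
miR-93-5p: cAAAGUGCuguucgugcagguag
miR-106b-5p: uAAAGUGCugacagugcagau
miR-15b-5p: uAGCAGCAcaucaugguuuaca
miR-16-5p: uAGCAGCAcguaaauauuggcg
With group and set means removed, miR-93 and miR-106b had like values of r with miR-451 (above), while miR-25 had 0.81 and miR-92a 0.61, and miR-15b had 0.80 and miR-16 -0.13. Over the 12 samples r was 0.39 for miR-93 and 0.83 for miR-106b, and 0.90 for miR-25 and 0.29 for miR-92a. It was 0.59 for miR-15b and -0.72 for miR-16. Whether miRNAs of a shared seed had like values thus depended on the pair and on the measure.

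Correlations with miR-451 were tested within each set of 6 arteries for 6 red cell and 6 white cell miRNAs, 24 relations in all. Of these, 2 had an unadjusted p under 0.05, both of miR-25, and none passed after adjustment. For miR-25 Pearson's r was 0.90 in numbers 1 to 3 (exact permutation p = 0.0278, adjusted 0.317) and Spearman's rho 0.94 (exact p = 0.0167, adjusted 0.400). Without the 2 arteries farthest from the median of miR-451, r was 0.52. In numbers 4 to 6 r was 0.78 (exact permutation p = 0.0444, adjusted 0.317) and rho 0.71 (exact p = 0.136, adjusted 0.653), and r without the 2 farthest was 0.79. For white cell miRNAs r ranged from -0.81 to -0.33 in numbers 1 to 3 and from -0.16 to 0.20 in numbers 4 to 6. miR-223, a miRNA of neutrophils and monocytes, had the r of -0.81 (exact permutation p = 0.0528, adjusted 0.317; Spearman's rho -0.77, exact p = 0.103, adjusted 0.653), which was -0.30 without the 2 farthest arteries. Its r was 0.09 in numbers 4 to 6. Each set pooled control and ligated arteries, so these r also hold the differences between groups. With group and set means removed, r of the white cell miRNAs ranged from -0.44 for miR-223 to 0.64 for miR-142-3p. There miR-142-5p had 0.53, and miR-150, miR-342-3p and miR-155 were negative. A correlation of miR-451 with miR-486 was not computed, since only 4 arteries had both.

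**Figure D4:**
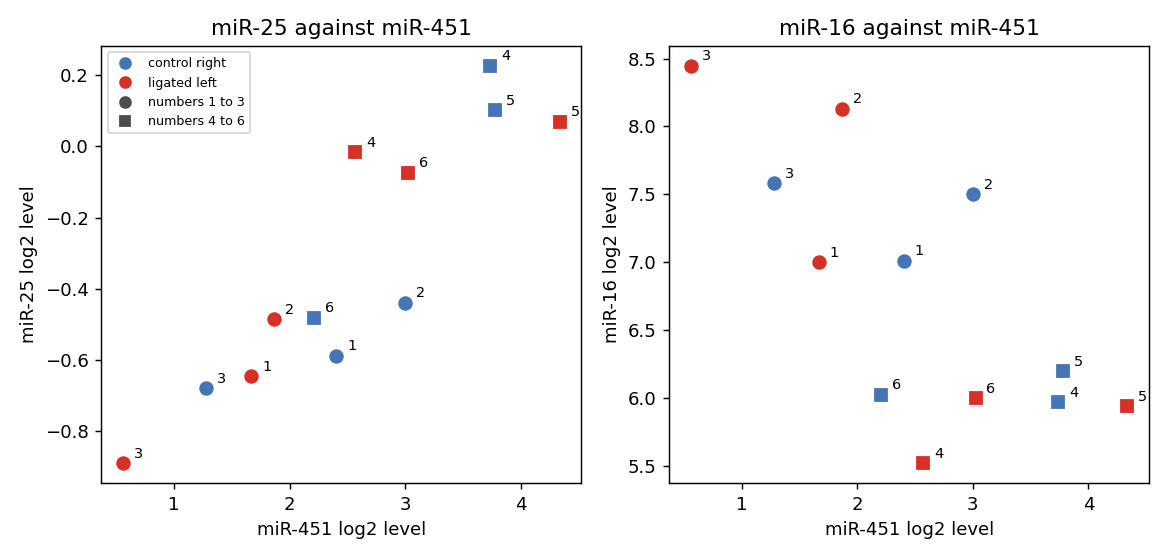
Log2 level of miR-25 (left) and miR-16 (right) against that of miR-451 in the 12 arteries, blue for control and red for ligated, circles for numbers 1 to 3 and squares for numbers 4 to 6, with sample numbers beside the points. miR-25 is higher where miR-451 is higher in both sets, and miR-16 mainly separates the sets.

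White cells reach an artery with the blood and also settle in its wall, so their miRNAs were set beside miR-451. Of 6 white cell miRNAs tested, 4 were higher in ligated arteries, none was lower, and their median log2 difference was 1.84, against -0.053 over all assays. Over all assays, 25 of 339 (7.37%) were called higher and 17 (5.01%) lower. On the scaled level the 2 smooth muscle miRNAs and miR-1 were lower in the same arteries. The part of wall composition in the rise of the white cell list was not tested. Of 7 miRNAs known to fall as red cell precursors mature, 3 were higher, none was lower and the median was 1.57. Those higher were miR-155, miR-221 and miR-222. Of the 7, miR-155, miR-150 and miR-223 are also on the white cell list, so the medians of the lists share members. miR-142-5p, made in blood-forming cells, was higher by 1.92 ± 0.26 (SE) on the log2 scale (limma, adjusted p 0.00326). Its levels lay between -4.09 and -2.73 in control and between -1.92 and -0.99 in ligated arteries, without overlap. Set against U6 and snoRNA429, miR-142-5p differed by 1.71 and did not pass (limma, adjusted p 0.335). Taken over miR-451 in the same artery, which needs no scaling, miR-142-5p was -6.27 ± 0.69 (SD, n = 6) in control and -3.95 ± 1.05 (SD, n = 6) in ligated arteries. The difference of 2.32 had an exact permutation p of 0.0043 (two-sided), where 0.0022 is the smallest possible. The ranges overlapped slightly, since ligated 5 at -5.66 lay below the highest control artery at -5.37. Among numbers 1 to 3 the difference was 2.77, and among numbers 4 to 6 it was 1.86. This ratio was chosen after its values were seen.

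The group comparison was then repeated with the red cell level of each artery as an added term, and how many calls stayed depended on the fit. With the mean of miR-451 and miR-486 as the term, limma called 51 of the 338 other assays (15.1%), 29 higher and 22 lower, among them all 42 called without it. In 8 arteries that mean rests on miR-486 set to the detection limit. With miR-451 alone, measured in every artery, 48 of 338 (14.2%) were called, 28 higher and 20 lower, and 41 of the 42 were kept. The call lost was that of miR-135a, whose log2 fold change went from 1.55 to 1.498 and whose adjusted p from 0.0454 to 0.0607. All 42 kept their sign. At equal miR-451 the log2 fold change of miR-142-5p was 2.02 ± 0.21 (SE; limma, adjusted p 0.000356) and that of miR-155, induced in activated immune cells, 2.47 ± 0.39 (SE; adjusted p 0.00332). That of miR-145, of contractile smooth muscle, was -2.37 ± 0.47 (SE; limma, adjusted p 0.00636). The 7 assays called only with the term were miR-130b*, miR-15b, miR-18a, miR-193, miR-223, miR-26b and miR-28*. miR-223 went from 1.67 to 1.39 on the log2 scale and its adjusted p in limma from 0.0901 to 0.0373, while numbers 1 to 3 against 4 to 6 as a block, with no red cell term, gave 0.00179. The term was past an adjusted p of 0.05 for 20 of 338 assays with miR-451, 82 with the mean and none with miR-486 alone. Once the sets of numbers were in the fit, it was past for none with miR-451 or the mean. There the miR-451 term had an unadjusted p under 0.05 for 14 assays. With the sets as a block, limma called 68 of 338 assays with no red cell term, 66 with miR-451 and 56 with the mean. With the replicate number as a block, limma called 42 with the miR-451 term, of which 34 were among the 42 of the group-only fit, and 52 without it, of which 36 were. With the block and the mean of miR-451 and miR-486 it called 3, all of them among the 42.

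**Figure D5:**
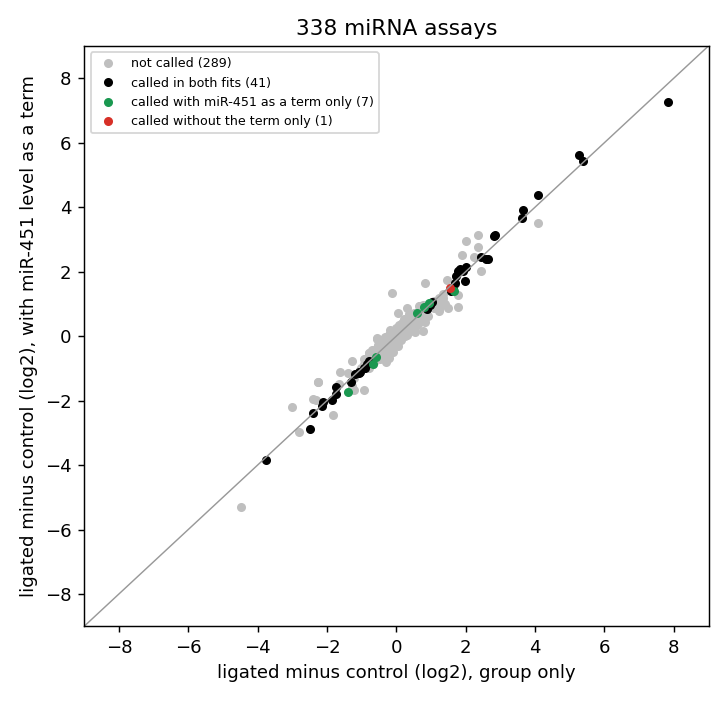
Log2 fold change between ligated and control arteries of 338 miRNA assays from the fit with group alone (horizontal) and with the miR-451 level as an added term (vertical); the line marks equal values and colours give the calls at an adjusted p below 0.05. Of the 42 assays called with group alone, 41 were called in both fits.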

How the data were processed

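The deposited main table holds raw Ct values of 513 miRNA assays (4 more are blank) and 6 control RNAs, per the file headers, from RNA isolated with the mirVana kit, per the labels' protocols. No source used here gives the instrument or threshold settings. The deposited value table is Ct less the average of U6 and snoRNA429, to within 5e-05 cycles over 513 rows. Between 317 and 357 assays were detected (Ct below 35) per sample. Undetected wells were set to 35, and an assay entered the fit when 4 of 6 samples of a group or more detected it. It was fitted with limma 3.58.1 in R 4.3.3 on minus the scaled Ct. Calls needed an adjusted p below 0.05. The fit was tested on simulated data.

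The members, lists and tests were chosen with earlier results of these data known. miRNAs named were the members, the fixed lists and, by likeness to miR-451, the 5 highest in each of 2 rankings. miR-32, miR-23b, miR-135a, miR-93*, miR-485*, miR-181c, the ratio of miR-142-5p to miR-451 and the assays called only with the miR-451 term were chosen after their values were seen.

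No label ties same-numbered samples to 1 mouse. The main fit and the exact permutation tests therefore took no pairs, and the replicate block was fitted beside them. Yet 6 left and 6 right arteries came from 6 mice. If each sample is 1 artery, each mouse gave 1 to each group. The tests without pairs treat arteries of the same mouse as independent. Across assays, the departures of control and ligated samples with the same number from their group means correlated with r of 0.252 to 0.697. With the sets of numbers removed, r lay between -0.111 and 0.309 and was 0.0451 for number 6, so these values do not settle whether the numbers are pairs. P-values measure the spread between the arteries given as 6 biological replicates.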

Additional observations from a re-analysis of the deposited data

How the results depend on the processing

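In 26 of 29 alternatives miR-451 was lower in ligated arteries and in 3 it was higher, and none passed the threshold (limma, adjusted p 0.413 to 0.984). The log2 fold change turned to 0.59 on raw Ct, 0.068 within numbers 4 to 6 and 0.077 with array weights. Leaving out 1 artery gave -0.80 without ligated 5 to -0.040 without ligated 3. Some alternatives cannot change the value. It stayed at -0.40 with either block, with no filter, with only assays detected in all samples and in the exact permutation test. The deposited values repeat the scaling to U6 and snoRNA429, at -0.60. The 26 therefore hold repeats of the same estimate. miR-451 over miR-486 had a log2 difference of 0.038 to 0.41 leaving out 1 artery, and 0.23 over same-numbered pairs (exact sign-flip p = 0.5, the smallest that 2 pairs allow). The difference against miR-23a, 0.14, ran from -0.31 without control 6 to 0.48 without control 4, was 0.032 with miR-23b and turned to -0.52 with miR-16 (exact permutation p = 0.669); without ligated 6 there is no ligated value. Over all assays, the 25 called higher and 17 lower became 7 and 3 when scaled to U6 and snoRNA429, where miR-143 and miR-145 did not pass either (limma, adjusted p 0.165 and 0.101), 57 and 0 on raw Ct, 51 and 50 with array weights, 16 and 9 without control 4 and 15 and 11 without control 6. Assays called with a red cell term numbered 48 and 50 with miR-451 or miR-486 alone. They numbered 42 with the replicate block and miR-451, and 3 with the replicate block and the mean of miR-451 and miR-486. With the sets of numbers as a block they numbered 56 with that mean and 66 with miR-451, against 68 with the block and no red cell term. No other scaling of a correlation between miR-451 and miR-486 was run, since 4 arteries had both. miR-486 was detected in the same number of arteries at limits of 32, 35 and 38, so its 8 wells at 40 set what can be said of it.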
